A study of Mus musculus with 2 samples.

Results

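The haemoglobin-rich barcodes described here, selected as erythroid cells, are 270 barcodes of the JQ1 library. They are 1.87% (95% interval 1.65 to 2.10) of its 14468 kept barcodes. The control library had 0 among 8269 kept barcodes, a share with an upper 95% limit of 0.0446%. A barcode stands for a droplet that held a cell or a fragment of cells, and kept barcodes had at least 200 genes and under 20% mitochondrial UMIs (unique molecular identifiers, which count RNA molecules). Members were chosen by their own readout: the summed UMIs of the adult globin genes Hbb-bs, Hbb-bt, Hba-a1 and Hba-a2 had to reach 20% of the barcode's total, the leukocyte gene Ptprc had to be at 0, and the keratin genes Krt5 and Krt14 together had to stay under 0.5%. Haemoglobin, and any gene that goes with it, therefore separates these barcodes from the others by construction, and those values are given as description.

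Both libraries came from tongue squamous tumours, used to model cancer of the head and neck, which the carcinogen 4NQO had induced in wild type C57BL/6 mice. JQ1, an inhibitor of BET bromodomain proteins, or control was then given for 10 days. Single cell RNA was captured with 10x 3′ chemistry, with 1 library for JQ1 and 1 for control, so that there are no replicates and no test is given. The JQ1 library held 16233 barcodes with 99565417 UMIs (median 3948.5 per kept barcode), and the control library 9754 barcodes with 118382532 UMIs (median 11435). How many mice were pooled is not stated, and drug, mice and preparation cannot be told apart. Intervals are exact 95% intervals and cover counting error only.

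Red cells form from dividing erythroblasts, which in adult mice reside in bone marrow and spleen and switch on haem synthesis, globins and the proteins of the red cell membrane under the transcription factors GATA1 and KLF1. They then stop dividing, condense and expel the nucleus and become reticulocytes, which live on stored RNA, destroy their mitochondria and many soluble proteins, and at last lose their RNA. Mki67 and other cell cycle genes therefore mark early erythroblasts, whereas genes of mitophagy and ubiquitin conjugation are known for late stages.

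The 4 globin genes that defined the barcodes and Alas2, the erythroid enzyme that opens haem synthesis, have promoters that can be compared by short elements known from work on globin genes, and their sequences are shown because the definition and the first marker rest on these 5 genes. Each line is the 120 bases before the annotated start, 5′ to 3′ on the gene's strand, from RefSeq on GRCm38.p6. Capitals mark matches to any of 4 motifs on either strand. The motif CACCC reads as GGGTG on the other strand, and the motif CCAAT reads there as ATTGG. In the same way the motif TATAA reads as TTATA, and the motif GATAA reads as TTATC.
Hbb-bs (chr7:103827929-103828048, minus strand): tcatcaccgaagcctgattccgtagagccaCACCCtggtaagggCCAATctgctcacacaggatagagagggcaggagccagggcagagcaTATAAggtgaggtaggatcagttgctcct
Hbb-bt (chr7:103813924-103814043, minus strand): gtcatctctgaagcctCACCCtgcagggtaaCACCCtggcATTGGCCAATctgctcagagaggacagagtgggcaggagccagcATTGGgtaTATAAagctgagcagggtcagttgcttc
Hba-a1 (chr11:32283552-32283671, plus strand): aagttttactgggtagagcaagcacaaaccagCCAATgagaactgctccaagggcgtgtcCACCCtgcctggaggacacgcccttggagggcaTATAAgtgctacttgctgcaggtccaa
Hba-a2 (chr11:32296372-32296491, plus strand): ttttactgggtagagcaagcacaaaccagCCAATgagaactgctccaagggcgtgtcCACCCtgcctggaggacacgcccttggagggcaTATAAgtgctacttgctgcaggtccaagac
Alas2 (chrX:150547297-150547416, plus strand): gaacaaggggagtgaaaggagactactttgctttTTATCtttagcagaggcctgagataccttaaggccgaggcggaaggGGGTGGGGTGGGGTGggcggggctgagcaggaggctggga
All 4 globin windows held the first 3 of these motifs. The Alas2 window had only the first in common with them, in 3 adjacent copies on the other strand, and held 1 copy of GATAA. Among the 32851 RefSeq windows of this length, 31.7% held the motif CACCC, 21.3% held CCAAT, 11.8% held TATAA and 10.5% held GATAA, so each motif alone is common. The windows of Hba-a1 and Hba-a2 were identical at 95.1% of aligned bases, and those of Hbb-bs and Hbb-bt at 93 of 124 aligned bases. The transcript ends, which this chemistry reads, were also alike: the last 300 bases of the longest coding transcripts were identical at 89.6% for the alpha pair and 86.2% for the beta pair. How UMIs were split within each pair is therefore uncertain, and the 4 genes are mostly summed below.

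The limit on haemoglobin cut through few barcodes. The lowest member had a haemoglobin share of 20.9% and the highest kept barcode under the limit 19.6%, with 13 kept barcodes at 20 to 25% and 14 at 15 to 20%. Most members lay far above it. By share, 117 had a share of at least 80%, 49 had 60 to 80%, 56 had 40 to 60% and 48 had 20 to 40%. Of the 285 kept JQ1 barcodes that reached the limit, 11 were left out for a Ptprc UMI and 4 for keratins. The limit on genes mattered far more, since 700 further JQ1 barcodes, against 3 of the control library, met every other condition with under 200 genes.

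Haemoglobin UMIs were also spread over the rest of the JQ1 library. Of the other 14198 kept JQ1 barcodes, 79.1% held at least 1 haemoglobin UMI, against 0.992% of kept control barcodes, with a median of 2 haemoglobin UMIs and 0.0303% of UMIs per JQ1 barcode. Summed, these JQ1 barcodes had 1946 haemoglobin UMIs per 1000000 UMIs and the control barcodes 0.896. The JQ1 sum takes in 88 barcodes with 1 to 20% haemoglobin and the 15 left out for Ptprc or keratins, which raise it above the median. The members held 30.5% of the haemoglobin UMIs of the JQ1 library and barcodes with under 200 genes 63.3%. Because of this spread, levels of all other genes are given per 1000000 non-haemoglobin UMIs (CPM), summed over the barcodes of a set.

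**Figure D1:**
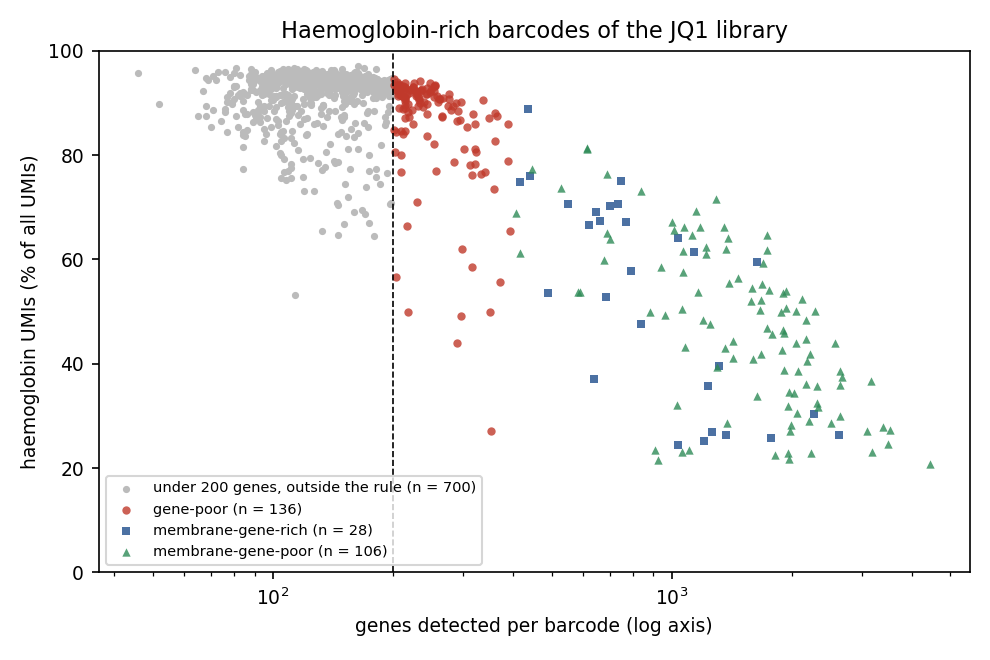
Haemoglobin share of all UMIs (y axis, %) against genes detected (x axis, log scale) for each JQ1 barcode that met the haemoglobin, mitochondrial, Ptprc and keratin conditions. The 700 barcodes left of the dashed line at 200 genes are outside the rule; the 270 members to its right fall into 136 gene-poor, 28 membrane-gene-rich and 106 membrane-gene-poor barcodes.

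Alas2, which the rule did not read, is given first, but it cannot check the erythroid label by itself. It went with haemoglobin, at 2.15 UMIs per 1000 haemoglobin UMIs (2.06 to 2.25) in members and 2.51 (2.28 to 2.75) in other JQ1 barcodes. A barcode chosen for haemoglobin would thus tend to hold it. Alas2 UMIs were present in 260 of the 270 members, with a median of 7 and at most 27 per barcode, and in 166 of the 14198 other JQ1 barcodes. In fibroblast-type barcodes, JQ1 barcodes outside the members chosen by collagen genes, 4 of 482 (0.830%) held one. Median depths were 940.5 non-haemoglobin UMIs in members and 6496 in fibroblast-type barcodes. Median haemoglobin counts were 3619 and 2 UMIs in the same order. The fibroblast-type set therefore gives no Alas2 background at the haemoglobin counts of members. Other erythroid genes were uneven among members, and 106 of them, described last, held few beside globins and Alas2, so that they are called by their rule and not by a cell type. Summed, Alas2 reached 3616 CPM in members and 4.89 CPM in other JQ1 barcodes, a 739-fold difference. As description only, since the rule used this contrast, 371 of 3767 genes with at least 50 CPM (9.85%) were at least 2-fold higher in members and 214 (5.68%) at least 2-fold lower. The higher genes took in 15 of 15 measured genes of the red cell membrane and its skeleton, 7 of 7 of haem synthesis, 6 of 7 erythroid transcription factors and 15 of 17 of late maturation. Slc4a1, the anion exchanger band 3, stood at 713 CPM in members and 1.27 CPM in other JQ1 barcodes. Lower genes were led by S100a9 and S100a8 of neutrophils and by Dcpp1, Dcpp2 and Dcpp3 of salivary gland. The gland direction depended on the summing: 5 of 5 salivary gland markers were lower in the sums, with a median log2 ratio of -2.75, whereas by the mean over barcodes 0 of 5 were lower and the median was 0.68. Dcpp3 was seen in 15.9% of members and 16.8% of other JQ1 barcodes.

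Adult globins made up nearly all globin RNA. The embryonic genes Hbb-y and Hba-x had 0 UMIs in members, and Hbb-bh1 had 3. Hbq1a and Hbq1b, a pair of theta globin paralogs between which UMIs may be misassigned, had 25 and 67 UMIs. The alpha genes held 35.1% of haemoglobin UMIs (35.0 to 35.2), with a median over barcodes of 35.2%.

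Members differed widely among themselves, and 3 sets were drawn after the values had been seen. Gene-poor barcodes had under 400 genes; the remainder were called membrane-gene-rich where 18 genes of the red cell membrane and skeleton held at least 1% of non-haemoglobin UMIs, and membrane-gene-poor where they held less. Gene-poor barcodes numbered 136 (50.4% of members, 44.2 to 56.5), membrane-gene-rich barcodes 28 (10.4%, 7.002 to 14.6) and membrane-gene-poor barcodes 106 (39.3%, 33.4 to 45.4). Gene number, the membrane genes and the haemoglobin share differ between these sets by the way they were drawn.

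The sets differed in how much RNA lay beside haemoglobin. Gene-poor barcodes had a median of 233 genes, 433.5 non-haemoglobin UMIs and 4057 haemoglobin UMIs, which gave a haemoglobin share of 90.1%. Membrane-gene-rich barcodes had 780 genes, 1764 non-haemoglobin and 2254 haemoglobin UMIs, a share of 58.6%. Membrane-gene-poor barcodes had 1676 genes, 3603 non-haemoglobin and 3435.5 haemoglobin UMIs, a share of 47.2%. The absolute haemoglobin count thus varied less than 2-fold between the medians while the other RNA varied more.

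Malat1, a long RNA retained in the nucleus, was lowest in gene-poor barcodes. Its median was 0.171% of non-haemoglobin UMIs in gene-poor barcodes, 1.69% in membrane-gene-rich and 2.03% in membrane-gene-poor barcodes, against 1.86% in other JQ1 barcodes. After each barcode was thinned to 300 non-haemoglobin UMIs, which left out 4 gene-poor barcodes, Malat1 was seen in 43.9% of gene-poor (35.3 to 52.8), 96.4% of membrane-gene-rich and 90.6% of membrane-gene-poor barcodes. Before thinning, the shares were 52.2%, 100% and 97.2% in the same order.

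Mki67, a protein of dividing cells, was concentrated in the membrane-gene-rich barcodes. Of 238 Mki67 UMIs in members, 212 lay in 20 of the 28 membrane-gene-rich barcodes, where the positive ones held 1 to 27 UMIs with a median of 9. Gene-poor barcodes held 7 UMIs in 6 barcodes and membrane-gene-poor barcodes 19 UMIs in 2. The summed levels were 3485 CPM (3031 to 3987) in membrane-gene-rich barcodes, 111 CPM in gene-poor, 43.7 CPM in membrane-gene-poor and 30.8 CPM in other JQ1 barcodes.

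Membrane-gene-rich barcodes also led at equal depth. At 300 non-haemoglobin UMIs, Mki67 was seen in 46.4% of membrane-gene-rich barcodes (27.5 to 66.1), 3.03% of gene-poor (0.832 to 7.58) and 0 of 106 membrane-gene-poor barcodes, against 0 of 482 fibroblast-type barcodes. Unthinned, the shares were 71.4%, 4.41% and 1.89%, against 2.28% in fibroblast-type barcodes, at median depths of 1764, 433.5, 3603 and 6496 non-haemoglobin UMIs. The unthinned share of membrane-gene-poor barcodes was thus at or below that of fibroblast-type barcodes. Of its 19 UMIs, 18 came from 1 barcode with 1964 genes and a membrane share of 0.988%, just under the limit, which also held 5 Klf1, 6 Gfi1b and 14 Hemgn UMIs.

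**Figure D2:**
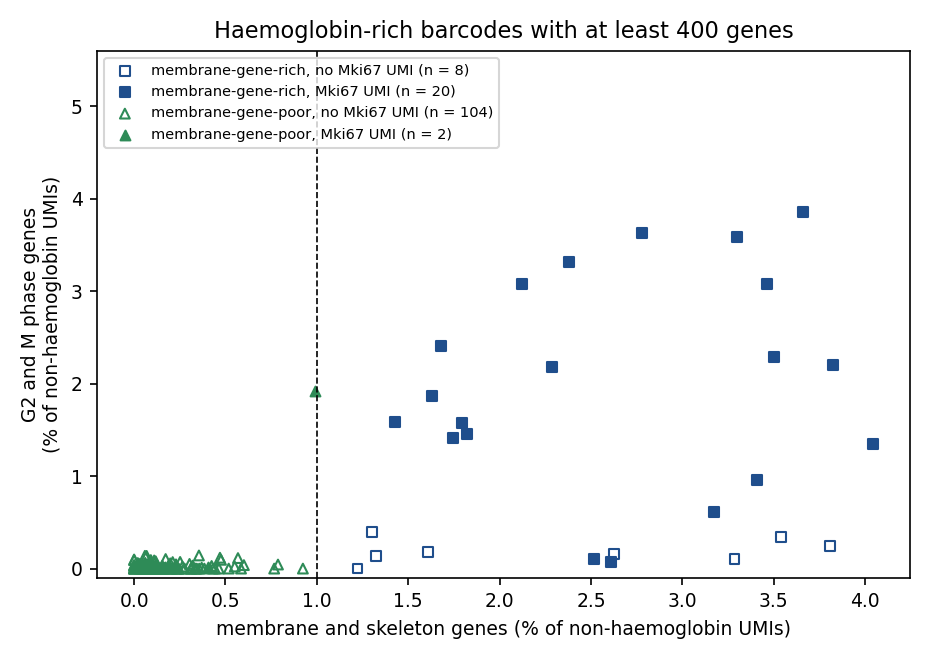
Share of non-haemoglobin UMIs from 24 G2 and M phase genes (y axis, %) against the share from 18 membrane and skeleton genes (x axis, %) for each member with at least 400 genes. Filled points held an Mki67 UMI; 20 of 28 membrane-gene-rich squares are filled, against 2 of 106 membrane-gene-poor triangles, 1 of which lies just left of the dashed limit at 1%.

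Summed cell cycle lists were also highest in membrane-gene-rich barcodes. Genes of G2 and M phase, Mki67 among them, summed to 16667 CPM in membrane-gene-rich barcodes. Their sums were 1469 CPM in gene-poor, 482 CPM in membrane-gene-poor and 695 CPM in other JQ1 barcodes. Genes of S phase, when DNA is copied, summed to 4109, 269, 503 and 477 CPM in the same order. Top2a, a DNA topoisomerase, and Rrm2, a subunit of the enzyme that makes DNA precursors, each had 0 UMIs in gene-poor barcodes and 44 in membrane-gene-rich ones.

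Gene-poor barcodes were set against membrane-gene-rich ones at a limit of 200 CPM in the higher set, because both sets are shallow. Of 975 genes, 190 (19.5%) were at least 2-fold higher in gene-poor barcodes and 476 (48.8%) at least 2-fold lower, with a median log2 ratio of -0.86 over all genes. All 9 measured S phase genes and 15 of 16 G2 and M phase genes were lower, as were 7 of 8 erythroid transcription factors. These counts are description. Of the listed genes, 9 of 20, 16 of 24 and 8 of 12 passed the limit, which a gene could pass in the membrane-gene-rich set alone. The limit thus favours calls of lower for genes high only there. The same limit applies to the lists below. Gata1, Klf1 and Tal1, factors of the erythroid program, had 0 UMIs in gene-poor barcodes and 16, 29 and 31 in membrane-gene-rich ones. These S phase, G2 and M phase and transcription factor genes had medians below 0 under each of the 4 scalings tried. The limit favours this sign too, so it is no further support. Per 1000000 of all UMIs the medians were -4.77, -4.83 and -5.43, against -2.91 over all genes.

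Cell cycle genes were not equally low in gene-poor barcodes. Ube2c, a ubiquitin-conjugating enzyme of mitosis, kept 932 CPM (59 UMIs in 35 barcodes) in gene-poor barcodes, against 2203 CPM in membrane-gene-rich ones. Nusap1, a spindle protein, stood at 190 and 378 CPM in the same order, short of 2-fold.

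Most haem synthesis genes were lower in gene-poor barcodes, at 5 of 7 measured, and 1 was higher, beside 48.8% and 19.5% over all genes. Alas2 was 4.65-fold higher in gene-poor barcodes, at 17360 against 3731 CPM, and Fech, which inserts iron as the last step, stood at 3080 against 1956 CPM. Among the lower enzymes, Alad had 31.6 against 773 CPM, Urod 158 against 1068 CPM and Ppox 47.4 against 477 CPM. Cpox had 0 against 90 UMIs, at least 31.2-fold lower when 0 is counted as 3 UMIs over the set. Set against haemoglobin instead, Alas2 was lower in gene-poor barcodes, with 2.13 UMIs per 1000 haemoglobin UMIs (2.01 to 2.26) against 3.09 (2.70 to 3.52) in membrane-gene-rich ones, and Fech with 0.378 (0.327 to 0.435) against 1.62 (1.34 to 1.94), so that both directions depended on the scale. Per 1000000 of all UMIs, 0 of the 7 genes were higher and 6 were lower, beside 29 and 796 of all 975 genes. The log2 ratio of Fech was then -1.39.

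Of 9 measured genes of iron handling, 3 were higher and 4 lower in gene-poor barcodes, beside 19.5% and 48.8% over all genes. The lower count is close to that share. Per 1000000 of all UMIs 0 were higher and 6 lower, beside 29 and 796 of all 975 genes. Tfrc, the transferrin receptor that brings iron into the cell, was at 63.2 CPM in gene-poor and 1956 CPM in membrane-gene-rich barcodes, 26 of 28 of which held it. Abcb10, a mitochondrial transporter, was at 31.6 against 1364 CPM. Slc25a37, the mitochondrial iron importer mitoferrin, was at 3649 against 4405 CPM and Ftl1, the ferritin light chain, at 15385 against 3567 CPM.

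Of 17 measured genes of late maturation, 8 were higher and 7 lower in gene-poor than in membrane-gene-rich barcodes, beside 19.5% higher and 48.8% lower over all genes. The lower count is thus near the background. Higher genes included Bnip3l, the receptor that tags mitochondria for removal, at 5845 against 1677 CPM, Mkrn1, a ubiquitin ligase, at 12779 against 2975 CPM, and Ube2l6, a ubiquitin-conjugating enzyme, at 5623 against 1101 CPM. Ube2o, which marks ribosomal proteins for destruction in reticulocytes, stood at 2148 against 657 CPM. Lower genes included Xpo7, a nuclear exporter known from chromatin condensation in erythroblasts, at 379 against 2268 CPM, Hemgn at 63.2 against 1956 CPM and Tmcc2 at 679 against 3468 CPM.

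The higher calls of this list rested on leaving haemoglobin out of the total. Per 1000000 of all UMIs, 0 of the 17 were at least 2-fold higher and 10 were lower. Of all 975 genes, 29 were then higher and 796 lower. The median log2 ratio of the list moved to -1.83, and that over all genes to -2.91. Bpgm, the red cell enzyme that makes 2,3-bisphosphoglycerate, was 7.41-fold higher per non-haemoglobin UMI, at 12905 against 1742 CPM. Per 1000 haemoglobin UMIs it stood at 1.58 (1.48 to 1.70) against 1.44 (1.18 to 1.74), where the intervals overlap.

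Genes of the salivary gland led the genes higher in gene-poor barcodes, which is a measured fact that stands beside every comparison of this set. Tff2 was at 13048 CPM in gene-poor barcodes, 1036 CPM in membrane-gene-rich and 9351 CPM in other JQ1 barcodes, and Lipf at 14043, 2022 and 18019 CPM. The 5 salivary gland markers summed to 5150 CPM in gene-poor, 904 CPM in membrane-gene-rich, 6676 CPM in membrane-gene-poor and 16321 CPM in other JQ1 barcodes. Keratinocyte markers summed to 1201 CPM in gene-poor and 148 CPM in membrane-gene-rich barcodes, and mature neutrophil markers to 505 and 82.2 CPM. The part of these markers in the other differences was not tested.

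**Figure D3:**
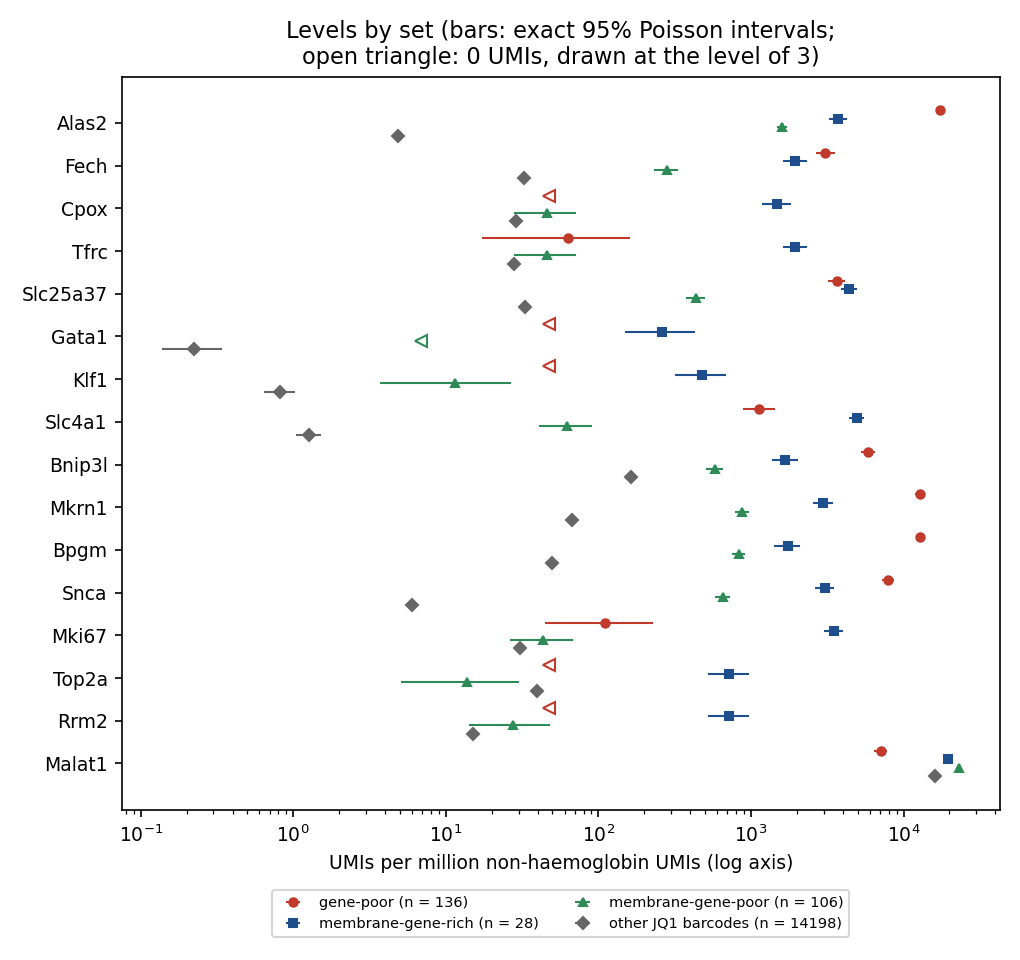
Summed level of 16 genes (x axis, UMIs per 1000000 non-haemoglobin UMIs, log scale) in gene-poor, membrane-gene-rich and membrane-gene-poor haemoglobin-rich barcodes and in other JQ1 barcodes, with exact 95% Poisson intervals. Alas2, Bnip3l, Mkrn1 and Bpgm are farthest right in gene-poor barcodes, whereas Cpox, Tfrc, Gata1, Klf1, Slc4a1 and Mki67 are farthest right in membrane-gene-rich ones.

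The membrane-gene-rich barcodes were themselves graded by haemoglobin share, in bins drawn after the values had been seen. Mki67 stood at 4986 CPM (4245 to 5818) in the 10 barcodes at 20 to 40% haemoglobin, 916 CPM (395 to 1804) in the 5 at 40 to 60% and 2171 CPM (1571 to 2924) in the 13 at 60% or more. The S phase list summed to 6534, 343 and 1817 CPM over the same bins. Both were highest in the lowest bin, and neither fell evenly.

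Other genes were higher at higher haemoglobin shares. Alas2 was at 1517, 3433 and 7472 CPM over the 3 bins and at 17360 CPM in gene-poor barcodes, and Bpgm at 61.9, 1373, 4645 and 12905 CPM. Mkrn1 followed the same order, at 712, 1717, 7219 and 12779 CPM. The median number of non-haemoglobin UMIs, the base of CPM, was 2872, 1639, 1411 and 433.5 in the same order, so these rises depend on the scale. Per 1000 haemoglobin UMIs, Alas2 was lower in gene-poor than in all membrane-gene-rich barcodes, at 2.13 against 3.09. So was Mkrn1, at 1.57 against 2.46, whereas the intervals of Bpgm overlapped. These orders are description, because haemoglobin share was used to choose the members and the genes were picked with their values known.

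A further group peaked in the membrane-gene-rich barcodes with the most haemoglobin. Xpo7 had 0 UMIs at 20 to 40% haemoglobin, 801 CPM at 40 to 60% and 6613 CPM at 60% or more, against 379 CPM in gene-poor barcodes. Tfrc took the values 1301, 1946 and 3029 CPM and then 63.2 CPM. Gata1 ran the other way, with 14 of its 16 UMIs in the lowest bin. Kit, a receptor of progenitors, had 1 UMI in all 28 barcodes, and Myb, a progenitor transcription factor, had 0.

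**Figure D4:**
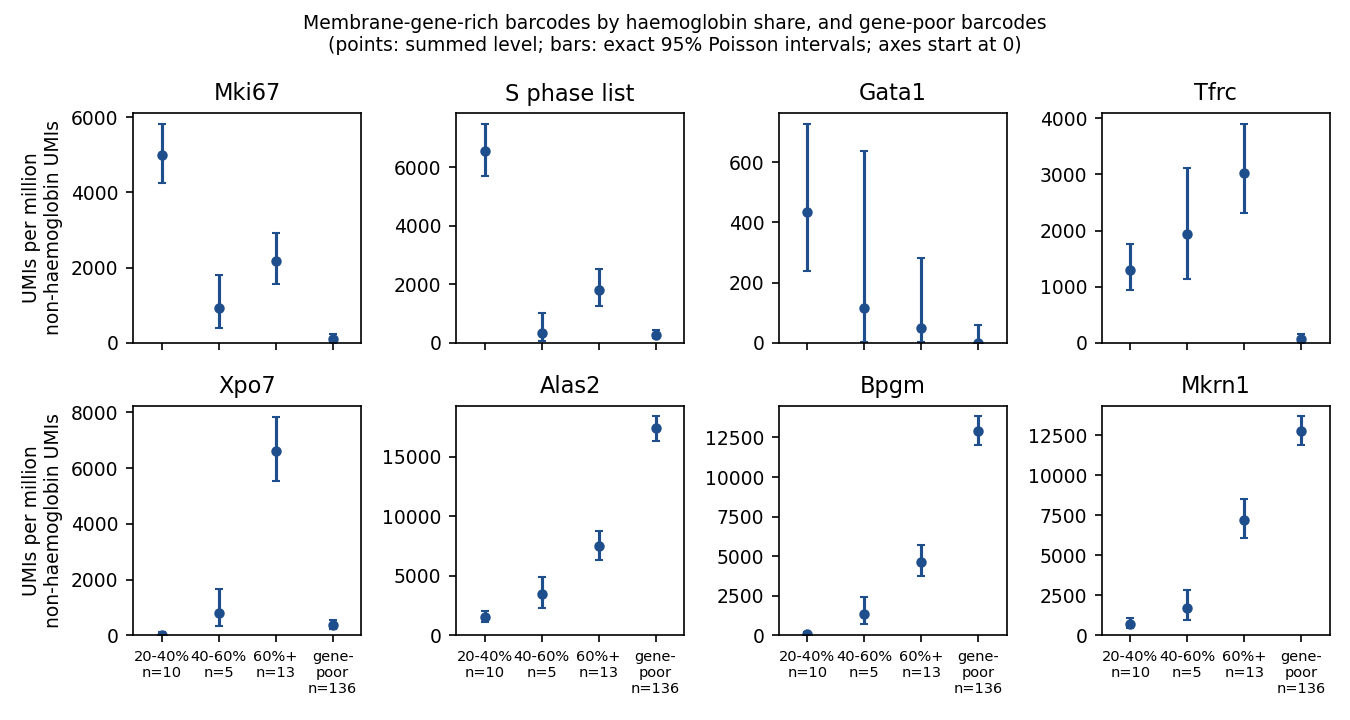
Summed level (y axes, UMIs per 1000000 non-haemoglobin UMIs, each starting at 0) of 7 genes and the S phase list in membrane-gene-rich barcodes at 20 to 40%, 40 to 60% and 60% or more haemoglobin, and in gene-poor barcodes, with exact 95% Poisson intervals. Mki67, the S phase list and Gata1 are highest in the lowest bin, Tfrc and Xpo7 in the bin at 60% or more, and Alas2, Bpgm and Mkrn1 in gene-poor barcodes.

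Membrane-gene-poor barcodes carried haemoglobin and Alas2 but little else that is erythroid. Against them, membrane-gene-rich barcodes had higher levels of 7 of 7 measured haem synthesis genes, 8 of 8 erythroid transcription factors, 9 of 9 S phase and 16 of 16 G2 and M phase genes. These counts are description, because the sets were split by red cell genes. The lists hold 8, 12, 20 and 24 genes, and a gene could pass the 200 CPM limit in membrane-gene-rich barcodes alone. Over all 1197 genes, 478 (39.9%) were at least 2-fold higher in membrane-gene-rich barcodes and 378 (31.6%) at least 2-fold lower. Car2, the carbonic anhydrase, was at 10092 against 163 CPM. Alas2 was present in 28 of 28 and 101 of 106 barcodes, against 4 of 482 fibroblast-type ones, whose median was 2 haemoglobin UMIs. It stood at 3.09 and 1.99 UMIs per 1000 haemoglobin UMIs in membrane-gene-rich and membrane-gene-poor barcodes. The second value had an interval of 1.84 to 2.14. It overlapped those of barcodes with under 200 genes, at 1.92 (1.86 to 1.98), and of gene-poor ones, at 2.13 (2.01 to 2.26).

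Markers of other cell types were frequent in this set. A marker list of another type reached 0.5% of non-haemoglobin UMIs, with at least 5 UMIs, in 76 of 106 membrane-gene-poor barcodes (71.7%), against 2 of 28 membrane-gene-rich (7.14%), 24 of 136 gene-poor (17.6%) and 73.2% of other JQ1 barcodes. The lists so reached in membrane-gene-poor barcodes were those of fibroblasts in 35, endothelial cells in 18, Schwann cells in 11, salivary gland in 6, keratinocytes in 3 and neutrophils and macrophages in 2 each. Endothelial markers summed to 1803 CPM in membrane-gene-poor barcodes, above the 772 CPM of other JQ1 barcodes, and Schwann cell markers to 1022 against 302 CPM. Cd34, known from progenitors and from vessel endothelium, had 414 CPM in this set, against 203 CPM in other JQ1 barcodes. Over all marker lists together, the share in single membrane-gene-poor barcodes had a median of 0.929% and a range of 0.0366% to 12.2%, against a median of 0.250% in membrane-gene-rich barcodes and 1.23% in other JQ1 barcodes. The doublet caller marked 2 of the 270 members, 1 of them in this set. What part such RNA had in the differences between sets was not tested.

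The membrane-gene-rich set held little of other types. Collagen UMIs were confined to few of its barcodes: Col1a1 had 16 UMIs in 2 of 28 barcodes and Col3a1 32 UMIs in 3. T cell, B cell and mast cell or basophil markers were all at 0 there, 6 of 7 macrophage and 6 of 8 immature neutrophil markers were at 0, and 4 UMIs came from 6 platelet and megakaryocyte markers.

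**Figure D5:**
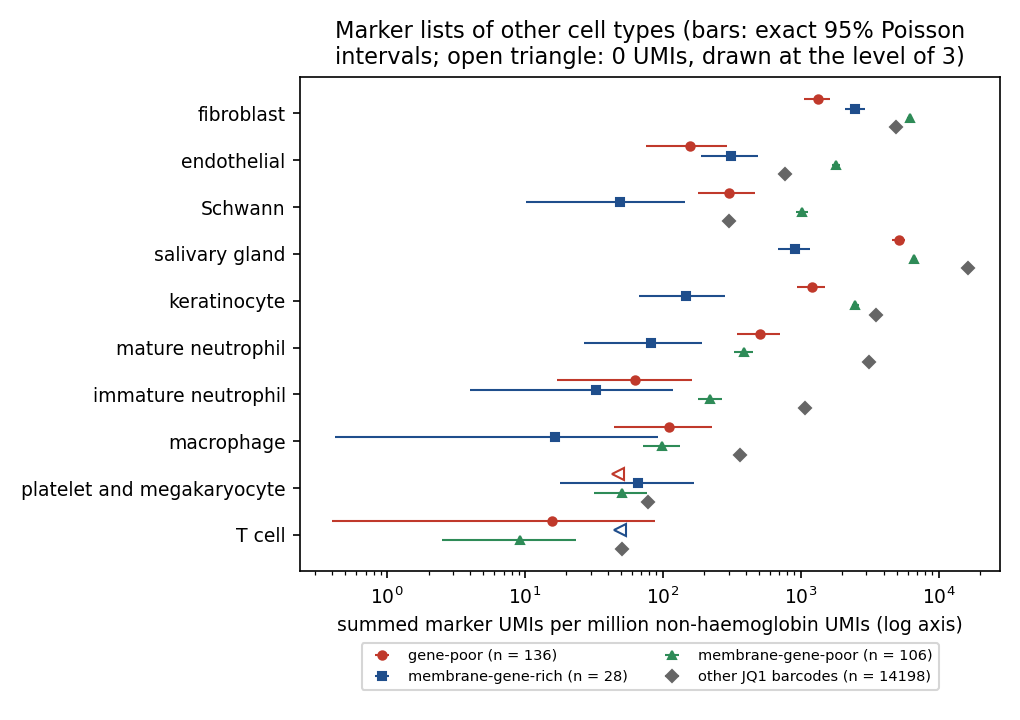
Summed level of marker lists of 10 other cell types (x axis, UMIs per 1000000 non-haemoglobin UMIs, log scale) in the same 4 sets, with exact 95% Poisson intervals. Fibroblast, endothelial and Schwann markers of membrane-gene-poor barcodes lie above the level of other JQ1 barcodes, and each list shown is lowest in gene-poor or membrane-gene-rich barcodes.

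Ranking members by haemoglobin share, the value the rule used, mixed these sets, and the comparison is given as description. Of the 90 barcodes with the highest shares, 89 were gene-poor; of the 90 with the lowest, 72 were membrane-gene-poor, 13 membrane-gene-rich and 5 gene-poor. Between them, 519 of 4098 genes (12.7%) were at least 2-fold higher in the 90 highest and 1298 (31.7%) at least 2-fold lower. Of the late maturation genes, 14 of 17 were higher and 1 was lower, with a median log2 ratio of 3.15, against -0.19 over all genes. Markers of other cell types moved as well: the median was 3.14 for 5 salivary gland markers, 3 of them higher, -2.54 for fibroblast markers and -2.19 for endothelial markers, each with 6 of 7 lower. The part of those cell types was not tested. The late maturation median stayed above 0 per 1000000 of all UMIs, at 0.24, against -3.11 over all genes. Then 5 of the 17 genes were higher and 4 lower, beside 41 and 3854 of all 4098 genes. Fam46c and Ccndbp1 were at 14016 and 2761 CPM in the 90 highest, against 664 and 92.7 CPM in the 90 lowest. Malat1 was at 1420 against 21630 CPM.

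The share of each globin gene, as counted, is given with the limit that UMIs within a pair may be misassigned. Hba-a2 held 41.9% of alpha UMIs in gene-poor barcodes, 35.9% in membrane-gene-rich and 41.6% in membrane-gene-poor ones. Hbb-bt held 16.6% of beta UMIs in gene-poor barcodes, 19.5% in membrane-gene-rich and 13.5% in membrane-gene-poor ones. The alpha genes held 36.2%, 30.6% and 34.6% of haemoglobin UMIs in the same order, with an interval of 30.2 to 30.9 in membrane-gene-rich barcodes. Of the single membrane-gene-rich barcodes, the alpha share ran between 22.8% and 36.7%, with a median of 31.3%, and in gene-poor ones between 22.2% and 77.4%, with a median of 35.9%, so that single barcodes overlap.

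Barcodes with under 200 genes, outside the rule, can be set beside the gene-poor members. The 700 that met every other condition had a median of 132 genes and 93.5% haemoglobin, and Alas2 at 27163 CPM, Bnip3l at 6300 CPM, Mkrn1 at 12579 CPM and Bpgm at 11499 CPM. Mki67 had 2 UMIs in all of them, Klf1 1 and Gata1 0.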

How the data were processed

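The authors deposited, per library, a matrix of raw UMI counts per gene and barcode from 10x 3' v3.1 chemistry read on an MGI2000 instrument, per the labels' protocols. Per the submitters' processing notes, Cell Ranger 3.1.0, Seurat 4.0.0 and mm10 were used; no source names the annotation release or a barcode filter. The lowest barcode total was 500 UMIs, and 40 barcode sequences occurred in both libraries, 2 of them members.

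From the counts, members were found by the rule stated above. UMIs were summed over barcodes and scaled per 1000000 non-haemoglobin UMIs, with exact Poisson, Clopper-Pearson and conditional ratio intervals (95%); a set at 0 was given 3 counts. Genes were called at 2-fold, with at least 50 CPM in the higher set, or 200 CPM between the small sets, without the genes used for selection. Members and gene lists were chosen with earlier results of these data known. The named genes are list members and up to 15 higher and 8 lower genes per contrast, ranked by the interval limit closest to no change, with a UMI in 10% of barcodes and without mitochondrial, ribosomal and predicted genes; others were named after their values were seen. Scrublet (scanpy 1.11.5) marked 424 JQ1 (2.93%) and 119 control (1.44%) barcodes as doublets, which were kept in the main values. The script that makes the calls was tested on simulated data. Some genes are not reported here. Scripts ran under matplotlib 3.10.9, pandas 2.3.3, scipy 1.17.1, numpy 2.4.6 and Python 3.11.15.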

Additional observations from a re-analysis of the deposited data

Results flagged for a closer look

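Outside the selected barcodes, 700 JQ1 barcodes with under 200 genes, against 3 of the control library, met every other condition, and they held 1941112 haemoglobin UMIs, against 939588 in the members. Among the other kept JQ1 barcodes 79.1% held a haemoglobin UMI, against 0.992% of kept control barcodes.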

How the results depend on the processing

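No paired analysis was possible because each treatment has 1 library. The number of members was 127 with at least 500 genes and 970 with no minimum of genes, against 270 as reported; the control library then had 3 in place of 0 without the minimum. Genes higher in members than in other JQ1 barcodes numbered 371 as reported, 107 per 1000000 of all UMIs, 630 at 20 CPM and 122 at 200 CPM. Genes lower there numbered 214 as reported, 2761 per 1000000 of all UMIs, 591 by the mean over barcodes, 506 at 20 CPM and 62 at 200 CPM. Between the 90 highest and 90 lowest barcodes by haemoglobin share, higher genes numbered 519 as reported, 41 per 1000000 of all UMIs, 1050 at 20 CPM and 209 at 200 CPM, and lower genes 1298, 3854 per 1000000 of all UMIs and 407 at 200 CPM.

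For the sets, drawn after the data were seen, a membrane limit of 2% left 18 membrane-gene-rich barcodes in place of 28. Genes higher in gene-poor than in membrane-gene-rich barcodes numbered 190 as reported, 500 at 50 CPM, 350 with scaling by the median ratio and 29 per 1000000 of all UMIs. Lower genes numbered 476 as reported, 1476 at 50 CPM and 796 per 1000000 of all UMIs. The counts at other CPM limits moved because other numbers of genes were measured, and those per 1000000 of all UMIs because haemoglobin enters the total. Of 155 alternative values, 106 stayed within the spread set for them and 49 moved. Medians of 3 lists changed sign, each from a reported value under 2-fold. Late maturation in gene-poor against membrane-gene-rich barcodes had a median log2 ratio of 0.22 as reported, -0.39 at a membrane limit of 2% and -1.83 per 1000000 of all UMIs. Between the highest and lowest barcodes by haemoglobin share, membrane and skeleton genes had 0.81 as reported, -2.11 per 1000000 of all UMIs and -0.0078 when members were split at the median, and G2 and M phase genes had -0.60 as reported and 0.38 at 200 CPM. The haem synthesis median there was 0 as reported and moved to both sides. It was -2.53 per 1000000 of all UMIs and 1.46 for barcodes at 60% or more against 20 to 40% haemoglobin. Gene-poor barcodes are shallow, with a median of 433.5 non-haemoglobin UMIs, and 13 of them, against 1 membrane-gene-rich barcode, had over 20% mitochondrial UMIs outside haemoglobin.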
